A study of Mus musculus with 6 samples.

Results

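DNA double-strand breaks are the most harmful lesion that ionizing radiation makes, and the genes described here sense, signal or mend them. Of 37 double-strand break repair genes listed, 34 had a probe that the platform annotation names for them: all 10 damage signalling genes, 16 of 18 homologous recombination genes and 8 of 9 end joining genes, among 19057 named genes in all. Xrcc2, Rbbp8 and Dclre1c were not analysed here. A gene was measured by the probe with its highest mean over all arrays, a choice that does not use the comparison between groups.

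The arrays were Illumina MouseWG-6 v2 BeadChips, which measure mRNA with bead-bound probes, and each held intestinal RNA of male C57 mice (C57BL/6J in the study's methods) aged 4 weeks, given 7 Gy of radiation to the whole body. The PBS group (3 arrays) received the saline vehicle and the free Ub group (3 arrays) received ubiquitin monomer. No array in the comparison came from an unirradiated intestine, so both groups carry the radiation response. By the labels the injection followed irradiation and tissue was taken 3.5 days after it. The methods and a legend of the study give another age, another time and injection before irradiation. No source used here says which stretch of intestine was taken, or that mice were pooled.

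When both strands break, the kinases ATM and ATR mark the chromatin around the break, and MDC1, the ubiquitin ligases RNF8 and RNF168, and TRP53BP1 then assemble on it. Homologous recombination copies the lost sequence from the sister chromatid, so it works in cells that have replicated their DNA, whereas end joining ligates the ends directly at any stage of the cell cycle. In the intestine the dividing crypt cells are the ones that radiation kills most readily. Much of this response acts through phosphorylation and ubiquitin marks on proteins, which an mRNA array does not measure.

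Signals are on a log2 scale, and a value within 0.01 of the lowest on its array is called at the floor. Between 32.2% and 33.7% of 45281 probes were at the floor on each array. PBS replicate 1 stood apart: its correlation with the other arrays was 0.949 to 0.954, where other pairs reached 0.968, and it was the single array at the floor for 954 probes, against 554 to 666 for each of the others. The main results are therefore also given without it. The tissue label was checked against epithelial markers, of which Vil1, a brush border protein, averaged 12.6, and Muc2, the goblet cell mucin, averaged 13.2. The probe of Fabp2, an enterocyte fatty acid carrier, was at the floor on 3 arrays. Pancreas markers, which belong to a neighbouring organ, were measured on every array: the sum of the log2 signals of 5 measured markers ranged from 49.4 to 63.9 with PBS and from 38.0 to 58.4 with free Ub. None of the 5 was at the floor on any array, and all had a lower mean with free Ub, with a median difference of -0.93. Free Ub replicate 3 was the lowest array for all 5. Their median deviation from their own 6-array means was 0.60, -1.22 and 2.45 in the PBS arrays. In the free Ub arrays it was 1.09, 0.78 and -3.45. The part of these markers in the results below was not tested. At an unadjusted p under 0.05 in limma, 3 other markers were lower with free Ub, against 3.33% of all genes. They were Eng (-0.56) and Robo4 (-0.46) of 6 endothelial markers, and Cdx2 (-0.27), an intestinal transcription factor, of 15 epithelial ones. In mean, 2 endothelial markers were higher, Tek (0.34) and Cdh5 (0.04), and 4 were lower, with Kdr at -0.18 and Pecam1 at -0.12. The summed log2 signals of the endothelial markers were 31.1 to 33.0 with PBS and 30.4 to 31.8 with free Ub. None of these markers passed the adjusted threshold, no endothelial marker was at the floor, and their part was not tested either.

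No repair gene passed an adjusted p under 0.05 in limma with Benjamini-Hochberg adjustment. The lowest adjusted p among them was 0.781, for Rpa2, and over all named genes the share called was 0.0577%. At an unadjusted p under 0.05 in limma, 2 of 34 genes were higher with free Ub (Chek1 and Rpa2), against 2.24% of all genes, and 1 was lower (Wrn), against 3.33% of all genes. By the authors' filter, which asks for more than a 2-fold change together with p under 0.05 before adjustment, 1 repair gene (Chek1) was called, against 2.29% of all genes in either direction. The groups did not overlap for 3 genes that were higher with free Ub (Chek1, Rpa2 and Rad50), against 3.74% of all genes, and for 2 that were lower (Wrn and Rnf8), against 5.02% of all genes. An exact permutation test of 3 arrays against 3 cannot go below a two-sided p of 0.1, so groups that do not overlap are the most that such a test can register.

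In mean, 18 repair genes were higher with free Ub and 15 were lower, and Mdc1 was at the floor on all 6 arrays. Their median difference was 0.06, beside -0.02 over all genes. Over the 23 repair genes above the floor on every array it was -0.02, beside -0.03 over all genes kept in the same way. Without PBS replicate 1 the median of all repair genes was 0.04, and the genes at an unadjusted p under 0.05 were 4 higher (Chek1, Rpa2, Rad52 and Prkdc), against 2.72% of all genes, and 0 lower, against 2.98% of all genes. The unadjusted counts rest on few arrays: leaving out PBS replicate 2 left 1 higher and 0 lower, leaving out free Ub replicate 1 left 0 lower, leaving out free Ub replicate 2 left 0 in either direction and leaving out free Ub replicate 3 left 0 higher. Over all genes the shares with 1 array left out were 2.2% to 3.31% higher and 2.98% to 4.23% lower. The counts without overlap on the higher side were 5 without PBS replicate 1, against 7.16% of all genes, 5 without PBS replicate 2, against 7.63%, and 6 without free Ub replicate 1, against 9%. In whole tissue, fewer cells of a type and less RNA per cell cannot be told apart.

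**Figure D1:**
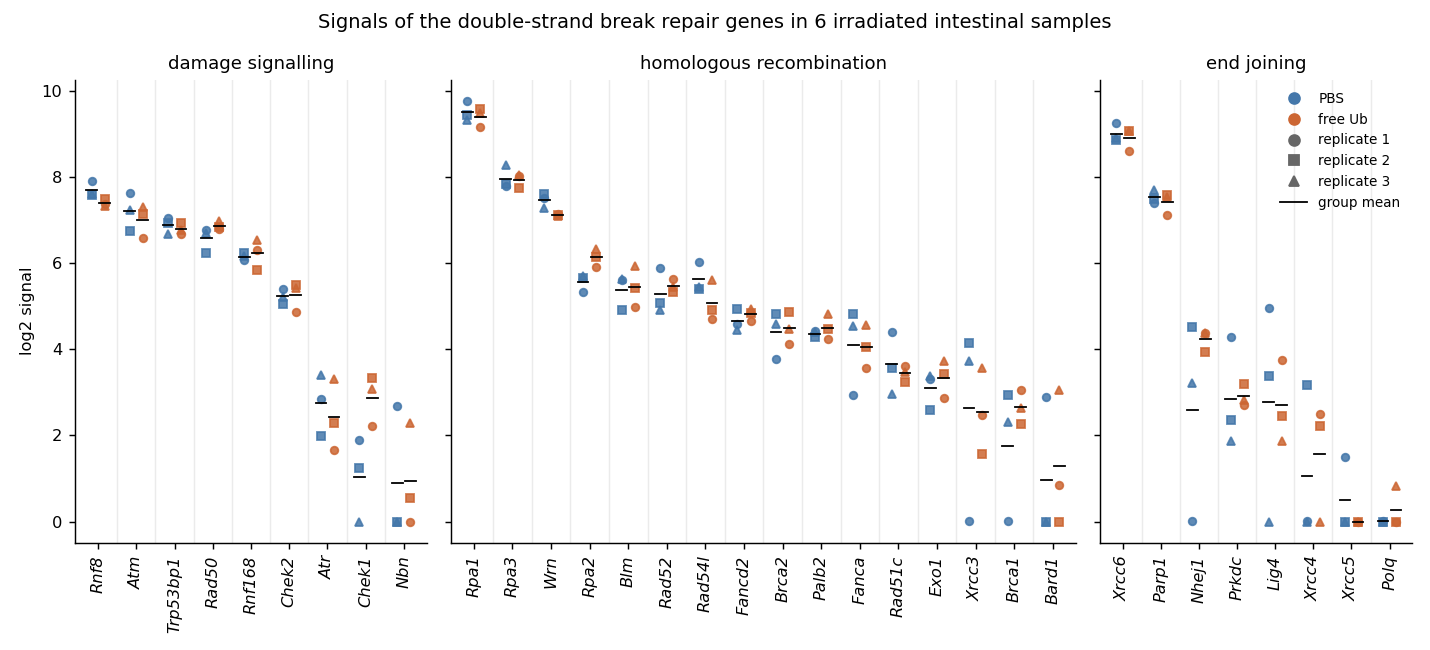
Log2 signal (vertical axis) of 33 double-strand break repair genes in the 3 PBS (blue) and 3 free Ub (orange) arrays, by role; marker shapes give the replicate and black lines the group means. Heights of different genes come from different probes and are not comparable, and the 3 free Ub points of Chek1, Rpa2 and Rad50 lie above the PBS points of the same gene while those of Wrn and Rnf8 lie below.

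Among the damage signalling genes, Chek1 showed the widest gap between groups. CHK1 is the kinase that ATR activates to hold the cell cycle while DNA is replicated or mended. Its signals were 1.89, 1.25 and 0.00 in the 3 PBS arrays, the last at the floor, and 2.22, 3.34 and 3.08 in the free Ub arrays. All 3 free Ub values were above all PBS values. The difference of means was 1.83 ± 0.60 on the log2 scale (SE, adjusted p = 0.836 in limma) and 2.25 without PBS replicate 1. The probe was dim, and since 1 PBS value was at the floor no fold change is given. Chek2, the kinase downstream of ATM, had means of 5.23 ± 0.17 with PBS and 5.26 ± 0.34 with free Ub (SD, n = 3 each), and its groups overlapped.

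Rad50 and Rnf8, the other damage signalling genes whose groups did not overlap, pointed in opposite directions. RAD50 is the DNA-tethering subunit of the MRN complex, the first sensor of a broken end. Rad50 signals were 6.77, 6.24 and 6.71 with PBS and 6.79, 6.84 and 6.98 with free Ub. The free Ub values all lay above the PBS values, the closest pair being PBS replicate 1 and free Ub replicate 1. The difference was 0.30 ± 0.17 (SE, adjusted p = 0.878 in limma), with a 95% interval from -0.14 to 0.73. Nbn, which encodes the MRN subunit that recruits ATM, was at the floor on 3 of 6 arrays, and its difference of 0.06 includes those 3 values.

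RNF8 is the ubiquitin ligase that begins the ubiquitin marks on chromatin at a break. Rnf8 signals were 7.92, 7.57 and 7.59 with PBS and 7.36, 7.48 and 7.33 with free Ub. All 3 free Ub values were lower, and PBS replicate 1 was the highest of the 6. The difference was -0.30 ± 0.12 (SE, adjusted p = 0.878 in limma) and -0.19 without PBS replicate 1. A dimmer second probe of Rnf8 gave 4.88 ± 0.28 with PBS and 4.89 ± 0.36 with free Ub (SD, n = 3 each). Rnf168, the ligase that extends these marks, was at 6.15 ± 0.08 and 6.23 ± 0.36, and Trp53bp1, whose product reads them and shields ends from resection, was at 6.88 ± 0.20 and 6.79 ± 0.13 (mean ± SD, PBS then free Ub). Both overlapped between groups on these probes. A dimmer probe of Trp53bp1, at the floor in PBS replicate 1, gave 3.13 and 3.43 in PBS replicates 2 and 3. Its free Ub signals were 4.46, 4.21 and 4.14, all above the PBS values. The difference was 2.09 (adjusted p = 0.872 in limma), and 1.00 without PBS replicate 1 (adjusted p = 0.422 in limma).

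The kinases at the top of the response varied more within groups than between them. Atm signals were 7.62, 6.75 and 7.24 with PBS and 6.58, 7.14 and 7.30 with free Ub. The highest and the lowest of the 6 values fell in different groups but the ranges overlapped widely, and the difference of -0.19 became 0.02 without PBS replicate 1. Atr, on a dim probe, differed by -0.32 with a 95% interval from -1.85 to 1.20. Mdc1, whose product is the scaffold that binds marked chromatin, was at the floor on all 6 arrays and gives no comparison. The median difference of the damage signalling genes was 0.04, and -0.09 over the 7 that were above the floor on every array.

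Among the homologous recombination genes, Rpa2 had the lowest p. RPA coats the single-stranded DNA that resection exposes, and it also covers single strands at replication forks. Rpa2, the middle subunit, had signals of 5.34, 5.66 and 5.71 with PBS and 5.91, 6.14 and 6.33 with free Ub. All 3 free Ub values were above all PBS values, and PBS replicate 1 was the lowest. The difference was 0.56 ± 0.16 (SE), a 1.47-fold higher mean with free Ub, at an adjusted p of 0.781 in limma, and it was 0.45 without PBS replicate 1. The other subunits of the same trimer differed by less, with means of 9.51 ± 0.23 and 9.40 ± 0.22 for Rpa1, the large subunit, and 7.96 ± 0.27 and 7.94 ± 0.16 for Rpa3, the small one (mean ± SD, PBS then free Ub, n = 3 each). The 3 probes of Rpa2 all had a higher mean with free Ub, by 0.56, 0.75 and 2.04, the last with 2 arrays at the floor.

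Wrn was the gene with the lowest p on the lower side. WRN is a RecQ helicase with an exonuclease, and it acts at stalled forks and recombination intermediates. Its signals were 7.52, 7.60 and 7.27 with PBS and 7.14, 7.11 and 7.10 with free Ub. All free Ub values were lower and spread over an SD of 0.02, against 0.17 with PBS. The difference was -0.35 ± 0.10 (SE), a 1.27-fold lower mean with free Ub, at an adjusted p of 0.810 in limma. Without PBS replicate 1 it was -0.32 at an unadjusted p of 0.063 in limma, above the threshold used for the counts. A second Wrn probe was at the floor on 5 of 6 arrays. Blm, the other RecQ helicase here, which dissolves joined recombination intermediates, was at 5.39 ± 0.41 and 5.45 ± 0.49 (mean ± SD, PBS then free Ub).

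The mediators of recombination showed no shared direction. Brca2, the tumour suppressor that acts after resection, was at 4.40 ± 0.55 with PBS and 4.49 ± 0.38 with free Ub, and Palb2, its partner, at 4.36 ± 0.08 and 4.50 ± 0.29 (mean ± SD, n = 3 each). Brca1, which opens the way to resection, was at the floor in PBS replicate 1 alone. Its difference was 0.91 with that array and 0.04 without it. A dimmer second probe of Brca1, at the floor on the same array, gave -0.78 with that array and -1.78 without it. Bard1, the partner of BRCA1 in its ubiquitin ligase, was at the floor on 3 arrays. Rad51c differed by -0.21 and Xrcc3, whose product binds that of Rad51c, by -0.10. Xrcc3 was also at the floor in PBS replicate 1 alone, and without that array its difference was -1.41 at an unadjusted p of 0.119 in limma.

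Rad52, which anneals single strands, had signals of 5.89, 5.06 and 4.92 with PBS and 5.62, 5.33 and 5.45 with free Ub. Only PBS replicate 1 was above the free Ub values, and leaving it out moved the difference from 0.18 to 0.48. Rad54l, whose product is a DNA-dependent motor protein of strand exchange, had signals of 6.03, 5.40 and 5.44 with PBS and 4.69, 4.91 and 5.61 with free Ub. Free Ub replicates 1 and 2 were below all PBS arrays and free Ub replicate 3 was not, with a difference of -0.56 and a 95% interval from -1.40 to 0.28. Exo1, a resection nuclease, differed by 0.25. The Fanconi anemia genes Fanca and Fancd2, which link crosslink repair to recombination, differed by -0.04 and 0.15. The median difference over all 16 homologous recombination genes was 0.08.

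**Figure D2:**
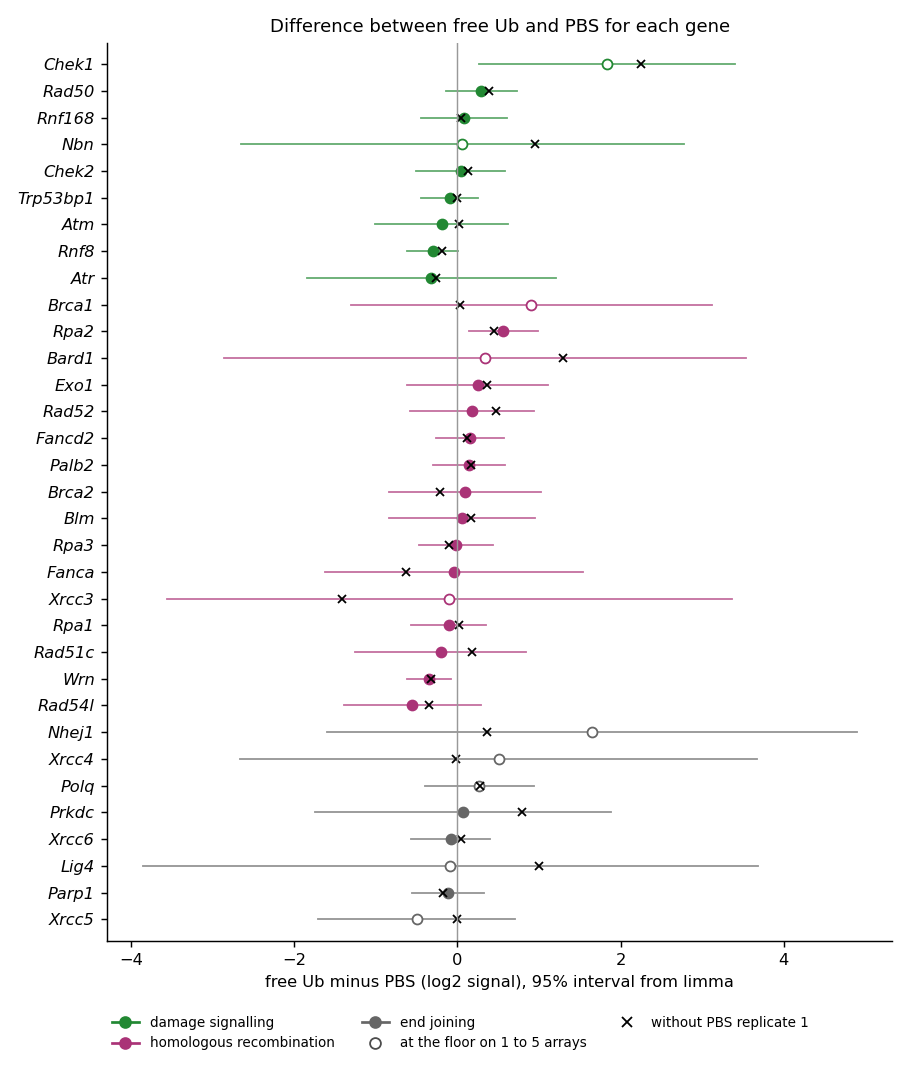
Difference of means, free Ub minus PBS, on the log2 scale (horizontal axis) for 33 repair genes, with 95% intervals from limma over all 6 arrays; open circles are genes at the floor on 1 to 5 arrays and crosses are the difference without PBS replicate 1. The intervals of Chek1, Rpa2 and Wrn leave out 0, the intervals of dim genes are the widest, and the crosses of Xrcc3, Nhej1, Lig4, Bard1, Nbn, Brca1 and Prkdc lie farthest from their circles.

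No end joining gene reached an unadjusted p under 0.05 on its brightest probe over all 6 arrays, and their median difference was -0.01. Xrcc6 encodes KU70, which with KU80 threads onto broken ends. Its signals were 9.24, 8.86 and 8.90 with PBS and 8.61, 9.07 and 9.06 with free Ub. The groups overlapped on this probe, and the 95% interval of its difference ran from -0.57 to 0.40. Dimmer probes of Xrcc6 were higher in mean with free Ub, by 0.18 with groups that overlapped and by 0.89 with groups that did not. The adjusted p of both was 0.872 in limma. Parp1, the sensor that adds poly(ADP-ribose) at breaks and serves the alternative joining route, was at 7.53 ± 0.16 and 7.41 ± 0.26 (mean ± SD, PBS then free Ub), with an interval from -0.56 to 0.32. Xrcc5, which encodes KU80, was at the floor on 5 of 6 arrays although its partner was bright, and levels of different probes cannot be compared.

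Prkdc encodes the kinase subunit of DNA-PK, which KU recruits. Its signals were 4.29, 2.36 and 1.87 with PBS and 2.71, 3.19 and 2.83 with free Ub. PBS replicate 1 was above every other array and the remaining PBS arrays were below every free Ub array. The difference was 0.07 with PBS replicate 1 and 0.79 without it (adjusted p = 0.828 in limma). A dimmer second probe of Prkdc, above the floor on all arrays, was higher with free Ub and its groups did not overlap. Its difference was 1.50 (adjusted p = 0.741 in limma). Nhej1, whose product XLF bridges ends, was at the floor in PBS replicate 1, and its other signals were 4.51 and 3.22 with PBS and 4.38, 3.93 and 4.37 with free Ub. Those values overlapped, and the difference went from 1.65 to 0.36 when that array was left out. Lig4, the ligase of the pathway, was at the floor in PBS replicate 3, and Xrcc4, its binding partner, on 3 arrays. The difference of Xrcc4 was 0.51 on this probe. A dimmer Xrcc4 probe, at the floor on 2 arrays, was lower with free Ub by -1.32 and its groups did not overlap (adjusted p = 0.872 in limma). Polq, the polymerase of the microhomology route, was above the floor in free Ub replicate 3 alone on its brightest probe. On a second probe it was above the floor in PBS replicate 3 alone.

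How small a difference could have been seen depended on the brightness of the probe. For the 10 repair genes with a mean above 6, the 95% intervals had a median half-width of 0.45, and their differences ran from -0.35 to 0.30, with 2 higher and 8 lower. For 9 of these 10 the interval lay within 1 log2 unit of 0 on both sides, so a doubling or a halving lay outside it; the exception was Atm, whose interval reached -1.01. For 9 genes with a mean of 4 to 6 the median half-width was 0.76, with 7 higher and 2 lower. For 8 genes with a mean of 2 to 4 it was 2.01, ranging from 0.86 to 3.77, with 4 higher and 4 lower. For most of them, though not for Exo1 or Rad51c, the interval held changes of several-fold. For 6 genes with a mean under 2, Chek1 among them, the median half-width was 2.14, ranging from 0.67 to 3.19. Of these, 5 were higher and 1 lower.

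The 34 genes had 72 probes, of which 6 were at the floor on all arrays and 39 above it on all. At an unadjusted p under 0.05 in limma, 5 probes were higher with free Ub, against 2.5% of all probes, and 2 were lower, against 2.65% of all probes. No probe passed an adjusted p under 0.05. Of the 7 probes, 4 were not the brightest of their gene: second probes of Prkdc (a difference of 1.50), Rad51c (1.26) and Brca2 (0.69) were higher, and a second probe of Palb2 (-1.11) was lower. With all arrays, none of these was matched by the brightest probe of the same gene, where the differences were 0.07, -0.21, 0.09 and 0.14. Without PBS replicate 1 both of these Prkdc probes were higher, by 0.79 on the brightest and 1.75 on the second. Of 23 genes with more than 1 probe, 7 had all probes above the floor pointing one way and 16 had probes pointing both ways. For Chek1 a second dim probe gave 1.29 and its groups did not overlap, while the remaining one, at the floor on 4 arrays, gave 0.12. Without PBS replicate 1, 8 probes were higher, against 2.74% of all probes, and 2 lower, against 2.75%, at the same unadjusted threshold.

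**Figure D3:**
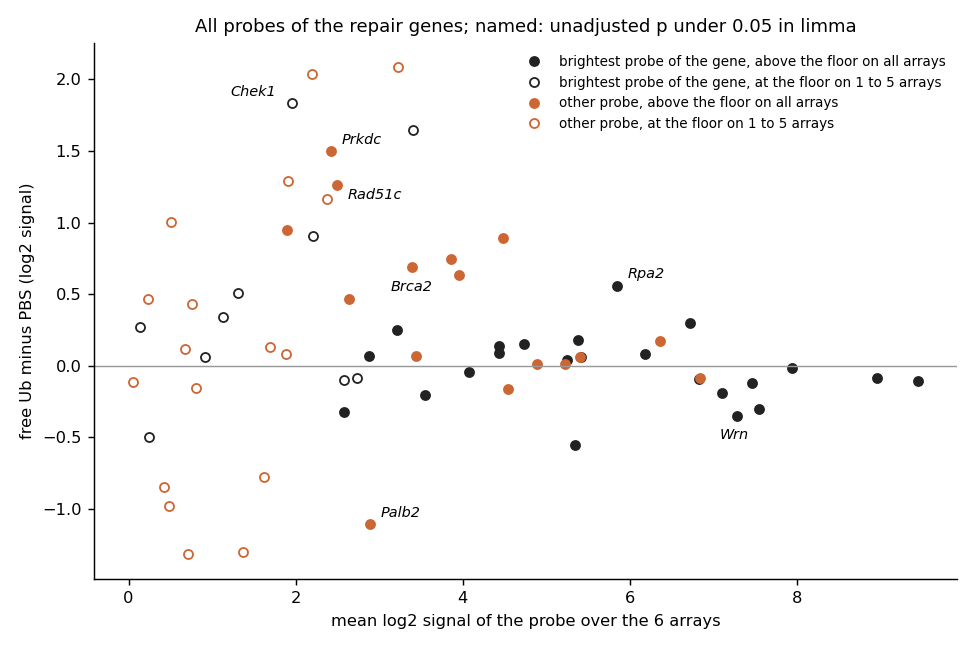
Difference of means, free Ub minus PBS (vertical axis, log2), against the mean log2 signal over 6 arrays (horizontal axis) for the probes of the repair genes that were above the floor on at least 1 array; black marks the brightest probe of each gene, orange the others, and open circles probes at the floor on 1 to 5 arrays. Named probes had an unadjusted p under 0.05 in limma, and the scatter narrows from dim probes on the left to bright probes on the right.

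The promoters of the genes with the lowest unadjusted p on the higher side are shown because repair and replication genes are often controlled by E2F factors, which switch on S phase genes, and by the CCAAT-binding factor NF-Y. Each window runs 5′ to 3′ from 250 bases before to 50 bases after the RefSeq transcription start (GRCm38.p6). Capitals mark GCGGGAA, the core of an E2F word, and ATTGG, which is CCAAT read on the other strand. The Chek1 window is chr9:36726609-36726908 on the minus strand and the Rpa2 window is chr4:132768110-132768409 on the plus strand. Wrn and Rad50 had no window in the table.
Chek1: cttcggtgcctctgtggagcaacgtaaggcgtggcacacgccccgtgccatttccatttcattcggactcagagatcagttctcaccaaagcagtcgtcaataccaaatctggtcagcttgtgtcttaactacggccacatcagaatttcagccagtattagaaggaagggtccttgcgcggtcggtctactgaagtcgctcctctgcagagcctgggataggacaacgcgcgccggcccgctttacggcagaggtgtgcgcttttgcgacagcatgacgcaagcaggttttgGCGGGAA
Rpa2: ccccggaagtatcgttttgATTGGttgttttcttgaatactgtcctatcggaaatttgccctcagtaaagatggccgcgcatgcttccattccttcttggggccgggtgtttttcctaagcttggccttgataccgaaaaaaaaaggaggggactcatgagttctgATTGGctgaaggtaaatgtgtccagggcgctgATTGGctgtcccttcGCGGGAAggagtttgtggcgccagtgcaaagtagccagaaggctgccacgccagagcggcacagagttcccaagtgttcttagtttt

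Chek1 holds 1 core at the 3′ end of its window and no CCAAT word. Rpa2 holds 3 CCAAT words and 1 core downstream of them. Of the 37 listed genes, 29 had a window. The core GCGGGAA or its complement TTCCCGC, a word chosen after these promoters had been read, was in 13 of them, or 44.8%, against 4.66% of 27025 genes with a window. It was in 24% of S phase and mitosis genes and in 13.2% of the other repair genes with a window. The longer E2F words TTTCCCGC, TTTCGCGC, TTTGCCGC and TTTGGCGC, searched on both strands, were in 6 of 29 (Mdc1, Chek2, Brca2, Bard1, Rad51c and Xrcc6), or 20.7%, against 2.32% of all, 28% of S phase and mitosis genes and 7.35% of the other repair genes. The word TTTCCCGC contains the core on the other strand, so these searches overlap. CCAAT on either strand was in 16 of 29, or 55.2%, against 37.9% of all, 72% of S phase and mitosis genes and 48.5% of the other repair genes. Of the 3 genes with an unadjusted p under 0.05 in limma on the brightest probe, Wrn had no window to search. Chek1 and Rpa2 were not among the 6 with a longer E2F word. The Chek1 window ends on its core, so a longer word at that place could not have been matched. A word match is a description of the letters and does not show that a factor bound there.

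Taken array by array, the repair genes spread as widely within a group as between groups. Deviations from a gene's own 6-array mean were taken for the 33 genes above the floor on at least 1 array. Their median was 0.15, -0.10 and -0.04 in the PBS arrays and -0.17, 0.03 and 0.20 in the free Ub arrays. Free Ub replicate 1 was the lowest and free Ub replicate 3 the highest of the 6, so the extremes lay in 1 group. The number of repair genes at the floor was 6, 5 and 8 in the PBS arrays and 4, 4 and 3 in the free Ub arrays. Of all probes, 33.7%, 32.4% and 32.9% were at the floor with PBS and 32.5%, 32.7% and 32.2% with free Ub. Those shares overlapped between groups. Genes of S phase and mitosis, which follow the share of dividing cells, had medians of 0.24, -0.11 and 0.08 with PBS and -0.40, 0.19 and 0.23 with free Ub. Free Ub replicate 1 was the lowest array for both sets, and the part of cell division in the repair gene values was not tested.

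**Figure D4:**
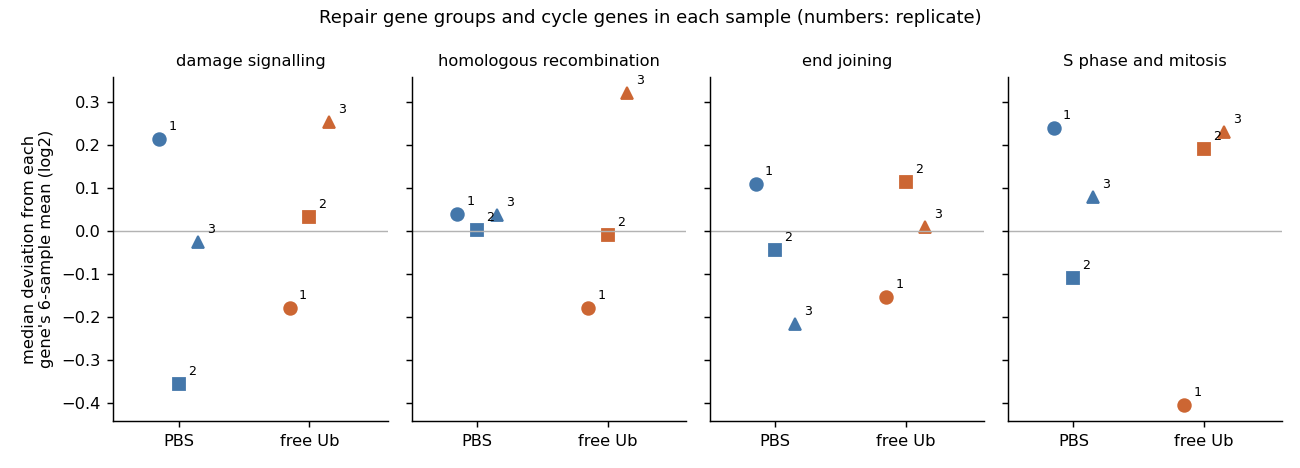
Median deviation of each gene list from its genes' own 6-array means (vertical axis, log2) in every array, for the 3 groups of repair genes and for genes of S phase and mitosis; numbers and shapes give the replicate. The groups overlap in all 4 panels, and free Ub replicate 1 is the lowest array in the S phase panel at -0.40.

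The other genes of the same pathways were divided between the directions. Of 77 measured other repair genes, 37 were higher and 39 lower in mean with free Ub, the median difference was -0.01 and 0 passed an adjusted p under 0.05. Among 26 measured other damage signalling genes, 1 was higher at an unadjusted p under 0.05 in limma, against 2.24% of all genes. On the lower side it was 0, against 3.33%. The higher gene was Kat5, whose product TIP60 acetylates ATM. Kat5 went from 5.20 ± 0.26 with PBS to 5.81 ± 0.26 with free Ub (SD, n = 3 each). Its difference was 0.61 with all arrays (adjusted p = 0.835 in limma) and 0.48 without PBS replicate 1. Among 35 other homologous recombination genes, 0 were higher and 1 was lower at that threshold, against the same shares. The lower gene was Mcm9, a helicase of the recombination machinery, on a dim probe. Mcm9 was at 1.82, 1.25 and 2.72 with PBS and at the floor in every free Ub sample (adjusted p = 0.629 in limma). Among 16 other end joining genes, 8 were higher and 8 lower and 0 had an unadjusted p under 0.05. H2ax, which encodes the histone that ATM phosphorylates, was at 8.27 ± 0.19 with PBS and 8.01 ± 0.24 with free Ub.

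Genes downstream of the damage signal were also divided between the directions. Above the floor on every array, p53 targets had a median absolute difference of 0.23, beside 0.14 for the repair genes and 0.18 over all genes. Of 14 measured p53 targets, 7 were higher and 7 lower, and Cdkn1a, the cell cycle inhibitor p21, was at 11.2 ± 0.07 in both groups (SD, n = 3 each). Pmaip1, the death gene Noxa, went from 5.67 ± 0.22 to 6.29 ± 0.22 with free Ub. Its difference was 0.62 (adjusted p = 0.771 in limma), or 0.51 without PBS replicate 1. At an unadjusted p under 0.05 in limma, 1 p53 target (Pmaip1) was higher, against 2.24% of all genes, and 0 were lower. The groups did not overlap for 2 p53 targets on the higher side, Pmaip1 among them, against 3.74% of all genes. On the lower side it was 0, against 5.02%. Of 28 measured S phase and mitosis genes, 12 were higher and 16 lower. At an unadjusted p under 0.05 in limma, 0 were higher, against 2.24% of all genes, and 1 (E2f1) was lower, against 3.33%. E2f1, an E2F factor that switches on S phase genes, was at 5.81, 5.88 and 5.57 with PBS and 5.24, 4.93 and 5.29 with free Ub. All 3 free Ub values were lower, with a difference of -0.60 on the log2 scale (adjusted p = 0.727 in limma), or -0.57 without PBS replicate 1, while the S phase list as a whole had a median difference of -0.05.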

How the data were processed

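Total RNA of 6 intestinal samples (3 PBS, 3 free Ub) was hybridised to 6 arrays. Per the study's methods the authors processed the signals in GenomeStudio with cubic-spline normalization. The values as deposited were taken to be log2, although neither the base nor the origin of the floor near 0 is stated in the sources used here, and the 6 columns share a median of 2.55 and a highest value of 14.5. No detection p-value or bead count was used, so the number of arrays limits the precision. The labels do not say that replicates are separate mice, and p-values then measure only the spread between these samples.

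Of 45281 probes, 34885 had 1 gene symbol in the platform annotation, 18 several and 10378 none, and only the first kind was named. All 34 measured genes matched under their current symbol. Free Ub minus PBS was fitted by limma 3.58.1 in R 4.3.3 (functions lmFit and eBayes, two-sided, no covariate), with Benjamini-Hochberg adjustment over 19057 genes, or over all probes for single probes. The scripts were tested on simulated data. The repair genes and the lists were chosen with earlier results of these data known. Named are all 37 listed genes and, of the other repair, S phase and mitosis and p53 target lists, up to 4 genes each with the smallest unadjusted p under 0.05; H2ax and Cdkn1a were named after their values were seen, and markers of cell types where the tissue check needed them or their unadjusted p was under 0.05. Alternatives were quantile normalization, recentring, floors of 4 and 6, filters on dim probes, array weights, an intensity trend, averaging all probes of a gene, the methods' t-test unpaired and paired, a replicate block and leaving out each array. Promoters are RefSeq windows on GRCm38.p6.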

Additional observations from a re-analysis of the deposited data

How the results depend on the processing

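Of 548 recomputed differences of single repair genes, 488 kept their sign and 60 did not, 45 of them when 1 array was left out; 24 genes changed sign at least once and 9 never did, among them Chek1, Rpa2, Wrn, Rnf8 and Rad50. No repair gene passed an adjusted p under 0.05 under any alternative that was run. The count at an unadjusted p under 0.05 on the higher side was 1 with a floor of 4, with either filter on dim probes and when the probes of a gene were averaged, and 0 with a floor of 6. On the lower side it was 2 with a floor of 6 or an intensity trend, and 0 with either filter and with the mean of probes. The floors and filters left fewer genes: 24 repair genes among 10499 with a floor of 4, and 12 among 6705 with a floor of 6. Over all genes left, 259 were higher and 357 lower with a floor of 4, and 163 and 214 with a floor of 6, at the same threshold. In every alternative with all arrays, the counts over all genes lay within 163 to 508 higher and 214 to 666 lower. Groups without overlap were 1 on the higher side with a floor of 6 and 1 on the lower side with the mean of probes. The share of all genes without overlap was not counted in these settings, so nothing is read from those counts. Leaving out 1 array gave 0 to 4 higher and 0 to 1 lower at an unadjusted p under 0.05, 3 to 6 higher without overlap, a median of -0.0833 to 0.15 for end joining genes and of -0.11 to 0.22 for homologous recombination genes. The end joining median was 0.24 with array weights and 0.19 with the mean of probes.

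No pairing by replicate number was visible: deviations of same-numbered samples correlated at -0.003, 0.02 and -0.09. Those of unlike-numbered samples ran from -0.09 to 0.09. With 3 arrays per group these values cannot show that the samples were unpaired. With a replicate block in limma, 1 repair gene was higher and 0 lower at an unadjusted p under 0.05, and 0 of all genes passed the adjusted threshold; the methods' paired t-test (replicate block) gave 1, 0 and 0 as well. The methods' unpaired t-test gave 2 higher and 1 lower, with 1 gene (Chek1) at a fold change above 2, and 5 of all genes after Benjamini-Hochberg adjustment. The unadjusted counts over all genes in each of these settings lay within the ranges given for the alternatives with all arrays. These repair gene counts are not read as a difference from all genes.

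Over all genes the adjusted count was 11 in the reported fit, 0 with either floor, either filter or an intensity trend, 6 with the mean of probes and 18 to 28 with 1 array left out. At an unadjusted p under 0.05 the alternatives with all arrays ranged from 163 to 508 higher and 214 to 666 lower. The lowest counts, 163 and 214, came with a floor of 6, which left 6705 of 19057 genes.

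Signs turned for Prkdc with a floor of 4 (-0.10) and, with array weights, for Brca2 (-0.0128), Xrcc6 (0.0106) and Lig4 (0.35). The mean of a gene's probes turned Atm (0.13), Nbn (-0.31), Trp53bp1 (0.66), Palb2 (-0.48), Rad51c (0.53), Rad54l (0.19), Exo1 (-0.0159), Fanca (0.0191), Xrcc4 (-0.41), Xrcc6 (0.33) and Parp1 (0.32), a setting in which dim probes count as much as bright ones. With 1 array left out, signs turned for 22 genes, with these lowest and highest differences: Atm -0.42 to 0.0197, Brca2 -0.22 to 0.31, Rad51c -0.54 to 0.18, Rpa1 -0.20 to 0.0249, Xrcc4 -0.0204 to 1.56, Xrcc6 -0.16 to 0.0687, Lig4 -1.48 to 1.00, Nbn -0.61 to 0.95, Chek2 -0.075 to 0.23, Bard1 -0.54 to 1.30, Xrcc3 -1.41 to 0.67, Exo1 -0.00197 to 0.48, Blm -0.19 to 0.30, Fanca -0.63 to 0.32, Prkdc -0.42 to 0.79, Atr -0.76 to 0.0582, Rad52 -0.00536 to 0.48, Rpa3 -0.11 to 0.14, Parp1 -0.21 to 0.0319, Rnf168 -0.0738 to 0.28, Palb2 -0.0164 to 0.28 and Polq -0.00204 to 0.41. The cause of these turns was not tested. The values carry no bead counts, and below a mean of about 4 the spread between arrays limits what can be seen.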
